A study of Mus musculus with 20 samples.

Results

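CD4 T cells kept in IL-7 and IL-15 until week 3 were compared with CD4 T cells of week 1, in 10 of the 20 libraries of a mouse T cell series. The members are the libraries whose labels give CD4 T cells, 5 with the time w1 and 5 with the time w3, and they are numbered here as replicates 1 to 5 of each week. The cells, from inguinal lymph nodes and spleen, had been stimulated on plates coated with antibodies to CD3 and CD28 in 1 ng/mL IL-2, and were then expanded in 10 ng/mL IL-7 with 50 ng/mL IL-15. Expansion lasted 4 days for the week 1 group and 18 days for the week 3 group, and that time is the only difference between the groups that the labels give. The labels describe polyclonal cells of albino B6 mice, stimulated for 72 hours, and T cell receptor transgenic cells of Marilyn-BLITC and MataHari-BLITC mice, stimulated for 24 hours, without saying which library held which. The most used beta variable segment took 12.3 to 15.2% of segment counts in each CD4 library. Before RNA was made, cells had been sorted to a purity above 97% for surface markers of central memory cells, CD44 among them. The CD8 cells of the same series gave 5 libraries of week 1 and 5 of week 4, after 25 days of expansion. They were part of the main fit of all 20 libraries. The filter, the scaling and the estimated spread behind its CD4 p-values therefore draw on them too. Their own change is used only in the comparison at the end.

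Central memory T cells are long-lived cells that circulate through lymph nodes and divide again when they meet their antigen. IL-7 sustains the survival of resting T cells, and IL-15 drives slow renewal of memory cells and favours features shared with natural killer cells. Helper CD4 cells are grouped by the cytokines and receptors they express, with type 1, type 2, type 17, follicular and regulatory cells as the main kinds.

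CD4 lineage genes were present in every library: the summed level of the CD4 T cell markers was 788 to 1130 CPM (counts of a gene per M counts of the library) at week 1 and 691 to 1090 CPM at week 3. Markers of CD8 T cells summed to 4.12 to 10.1 CPM at week 1 and 1.6 to 30.7 CPM at week 3, with week 3 replicate 1 highest. Gamma delta T cell markers summed to 8.91 to 38.7 CPM and then 44.9 to 88.3 CPM, natural killer cell markers to 0.599 to 22.3 and 1.04 to 9.8 CPM, and B cell markers, nearly all of it Ighm, to 303 to 660 and 300 to 469 CPM. Group 2 innate lymphoid cell markers, a list that holds Il1rl1 and Gata3, summed to 90.4 to 184 and 172 to 244 CPM, and mast cell and basophil markers, mostly Kit at week 3, to 0.537 to 3.66 and 3.41 to 42.1 CPM. Ms4a1, Pax5, Ncr1, Tyrobp and Sox13 were at or near 0. The libraries held 19.64 to 24.22 M counts. In bulk RNA, fewer cells of a type and less RNA per cell cannot be told apart.

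A pair of libraries stood apart. On the first principal component, which held 58% of the variance, week 3 replicate 2 lay at 16.6, inside the week 1 range of 6.786 to 50.48, while the other week 3 libraries lay between −24.23 and −52.53. Week 1 replicate 2 lay at the top of the week 1 range, and its summed interferon response genes were at 21560 CPM, against 2920 to 9432 CPM in the rest of week 1. Each result below was therefore also computed without each of them, and without every other CD4 library in turn. The plot of summed list levels shows where both libraries lay.

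**Figure D1:**
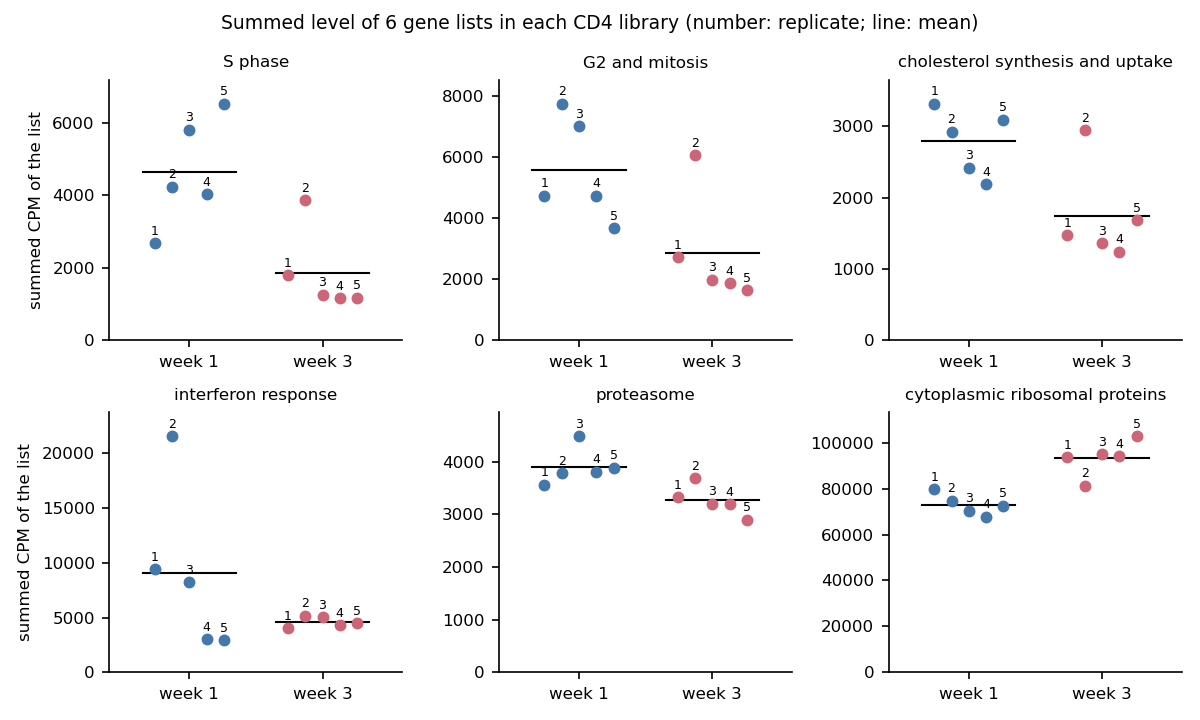
Summed level (CPM, linear axis) of 6 gene lists in each CD4 library; points are libraries numbered by replicate, and lines are group means. Week 3 replicate 2 sits with the week 1 libraries for S phase (3870 CPM), mitosis (6050 CPM) and cholesterol (2948 CPM) genes, and week 1 replicate 2 is at 21560 CPM for interferon response genes.

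Of 13290 genes tested with edgeR (quasi-likelihood test, p adjusted after Benjamini-Hochberg and under 0.05), 2189 passed, which is 16.5% of them. At week 3, 1020 genes (7.67%) were higher and 1169 (8.8%) lower than at week 1, and 320 and 450 of these differed by at least 2-fold. Libraries of the groups did not overlap for 411 of the higher and 376 of the lower genes, against 1083 (8.15%) of all genes tested. The median log2 fold change of all tested genes was 0.009. The labels name no animal or culture for any library. The p-values therefore reflect only the spread among the 20 libraries fitted, CD8 included, and that spread may be technical. Without week 3 replicate 2 the counts were 1683 higher and 1967 lower, without week 1 replicate 2 they were 788 and 829, and with the 10 CD4 libraries fitted alone they came to 4.51 and 4.15% of the 13290 genes. Over the fits that left out 1 CD4 library they ran from 574 to 1683 and from 516 to 1967, and 952 of the 2189 genes (43.5%) passed in all 10 of these fits. Genes that passed in all 10 are called stable below.

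None of 24 tested genes of naive and central memory cells passed in either direction, beside 16.5% of all genes, at a median log2 fold change of 0.07. Without week 3 replicate 2, 2 were higher. Cells of both weeks had been sorted for surface markers of central memory cells, and the part of the sort in this result was not tested. Ccr7, the chemokine receptor that brings T cells into lymph nodes, was at 418, 297, 429, 457 and 446 CPM in week 1 replicates 1 to 5 and at 457, 186, 421, 451 and 353 CPM in week 3 replicates 1 to 5. The groups overlapped over most of their range (log2 fold change −0.13, SE 0.274, edgeR adjusted p = 0.769). Tcf7, a transcription factor of memory cell renewal, had a log2 fold change of 0.53 (SE 0.23, edgeR adjusted p = 0.116), and it passed without week 3 replicate 2 (0.73, adjusted p = 0.00283). Il7r, the receptor for the IL-7 of the medium, had 0.90 (SE 0.424, edgeR adjusted p = 0.146), and it passed without week 1 replicate 2 (1.31, adjusted p = 0.047). Of 9 tested stem memory genes 2 fell (22.2%, beside 8.8% of all genes), Fas and Cxcr3, both described below. From 1 to 3 fell as libraries were left out. Among 43 lineage and effector transcription factors 8 fell and 2 rose, 18.6 and 4.65% of them beside 8.8 and 7.67% of all genes tested; 5 to 9 fell and 1 to 3 rose as libraries were left out. Tox, Irf8, Maf, Batf and Irf4, given below, are among those that fell. Foxp3, the defining factor of regulatory T cells, varied within both groups: 30.3, 6.73, 53.6, 100.3 and 6.08 CPM at week 1 and 21.7, 0.396, 8.61, 46.4 and 0.761 CPM at week 3. Its libraries overlapped and the difference did not pass (edgeR adjusted p = 0.318). Gata3, the factor of type 2 helper cells, was at 116.5 ± 37.3 CPM at week 1 and 166.1 ± 31.9 CPM at week 3 (SD, n = 5 each), and did not pass with all libraries (log2 fold change 0.51, edgeR adjusted p = 0.123). Without week 1 replicate 2 it was higher by 0.72 and passed (adjusted p = 0.0363).

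Il1rl1, a receptor gene of type 2 helper cells, rose from near 0. It encodes ST2, the receptor for the alarm cytokine IL-33, and lies on the forward strand of chromosome 1 from 40429570 to 40465415 in the GRCm38 annotation of the count table. It was at 0.208, 0.376, 0.8, 1.09 and 0 CPM in week 1 replicates 1 to 5, and at 38.5, 22.7, 45.7, 32.9 and 16.4 CPM in week 3 replicates 1 to 5. Every week 3 library was above every week 1 library, by at least an order of magnitude. The log2 fold change was 5.97 (SE 0.594, edgeR adjusted p = 1.7e-05), it was 6.06 without week 3 replicate 2 and 5.89 without week 1 replicate 2, and the call was stable. Beside it, the other group 2 innate lymphoid cell markers Il5, Il13, Areg and Arg1 were at or near 0 in both weeks, Rora averaged 5.58 CPM at week 1 and 8.86 CPM at week 3, and the part of such cells in the result was not tested. The neighbouring gene, Il18r1, starts at 40465552 on the same strand and encodes the receptor chain that binds IL-18. Its level went from 159, 29.6, 161, 188 and 41.7 CPM to 287, 219, 317, 300.1 and 211 CPM, again without overlap. Its log2 fold change was 1.20 (SE 0.381, edgeR adjusted p = 0.0381), but it passed in only 4 of the 10 fits that left out 1 library, with p up to 0.0865 without week 3 replicate 3, and not in the CD4 libraries alone (adjusted p = 0.11). Among 22 tested receptors for other cytokines, these were 2 of the 3 that rose (13.6%, beside 7.67% of all genes) and none fell. The number that rose ran from 1 to 5 as libraries were left out, with 1 without week 1 replicate 2 and 5 without week 3 replicate 2.

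Of 15 tested genes of the type 2 list, Il1rl1 was the 1 that rose and 3 fell, at a median log2 fold change of −0.17. These are 6.67 and 20% of them, beside 7.67 and 8.8% of all genes. Without week 1 replicate 2, 2 rose (Il1rl1 and Gata3) and 1 fell, and the median was 0.72; 1 to 4 fell as libraries were left out. Ecm1, an extracellular matrix protein, fell from 36.7 ± 23.8 to 11.3 ± 2.76 CPM (SD, n = 5 each; log2 fold change −1.70, SE 0.34, edgeR adjusted p = 0.00416; stable). Maf, a transcription factor of several helper kinds, was called lower (log2 fold change −1.71, edgeR adjusted p = 0.0356), yet week 1 replicate 2 held 20.1 CPM of it and the remaining week 1 libraries 2.54 to 7.14 CPM. Without that library the difference was −0.98 and did not pass (edgeR adjusted p = 0.157). The chemokine receptor Ccr8 was called lower as well, in 3 of the 10 fits that left out 1 library. Among 9 tested genes of type 17 cells, Tmem176a and Tmem176b, a pair of neighbouring membrane channel genes, rose by log2 1.53 and 1.52 (edgeR adjusted p = 0.0163 and 0.0188; both stable), while Batf and Irf4 fell. The 2 that rose and the 2 that fell are 22.2% of the list each, beside 7.67 and 8.8% of all genes. Tmem176a reached 76.8 CPM in week 3 replicate 2 and 47.6 CPM in replicate 5, while replicates 1, 3 and 4 held 16 to 24.3 CPM. It did not pass in the CD4 libraries alone (edgeR adjusted p = 0.0514).

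**Figure D2:**
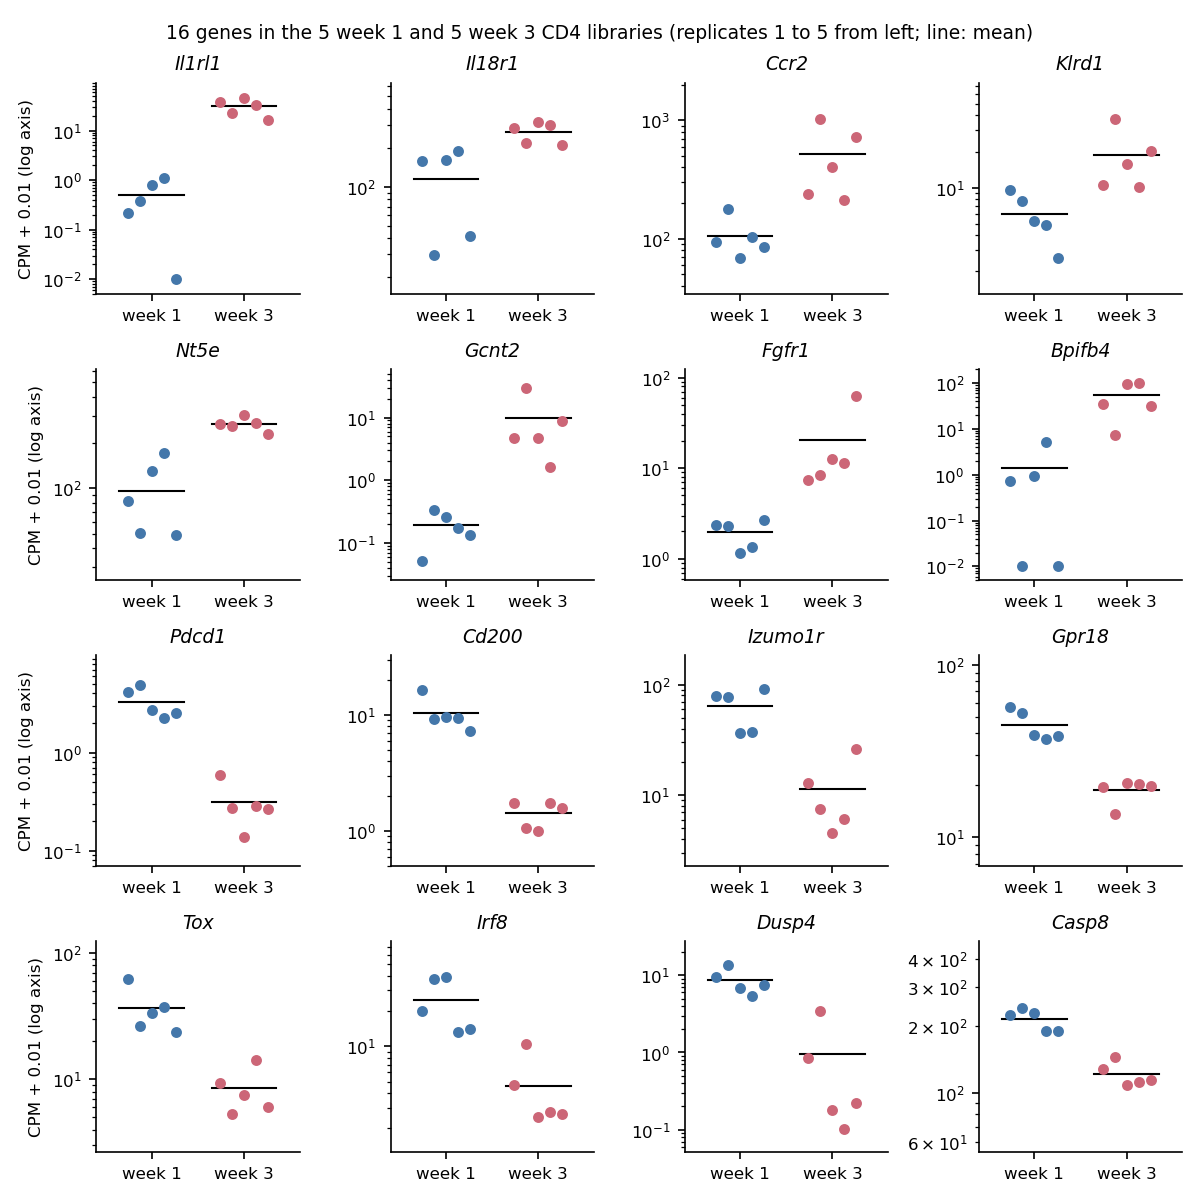
CPM plus 0.01 on a log axis for 16 genes in the 5 week 1 and 5 week 3 CD4 libraries, replicates 1 to 5 from left, with group means as lines. The 16 genes are a selection, some taken by a rule that required no overlap, so the lack of overlap in all 16 is no result. Over all genes tested 8.15% do not overlap. Il1rl1 goes from at most 1.09 CPM to at least 16.4 CPM.

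Several receptors and factors tied to repeated stimulation, follicular help and suppression fell. Of 22 tested genes of inhibitory receptors and exhaustion, 7 fell and 1 rose, with a median log2 fold change of −0.72. These are 31.8 and 4.55% of them, beside 8.8 and 7.67% of all genes tested. As 1 library at a time was left out 5 to 8 fell, and the median was −0.26 without week 1 replicate 2. Tox, a chromatin factor induced by lasting antigen receptor signals, was at 61.7, 26.3, 33.2, 37.5 and 23.7 CPM at week 1 and at 9.43, 5.28, 7.5, 14.3 and 6.04 CPM at week 3. All week 3 libraries were below all week 1 libraries (log2 fold change −2.10, SE 0.479, edgeR adjusted p = 0.00843). Cd200, an inhibitory surface ligand, fell by 2.87 on the log2 scale (SE 0.365, edgeR adjusted p = 0.00013), with week 1 replicate 1 highest at 16.4 CPM. Its receptor gene Cd200r1 went the other way, from 6.39, 6.73, 5.05, 8.55 and 4.33 CPM to 19, 29.2, 17.9, 19.7 and 21.6 CPM. This was the 1 member of the list that rose (log2 fold change 1.79, SE 0.328, edgeR adjusted p = 0.00258), and its groups did not overlap. Tox, Cd200 and Cd200r1 were stable and also passed in the CD4 libraries alone.

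Regulatory and follicular genes overlap with that list, and Ctla4, Pdcd1, Cd200 and Izumo1r each belong to more than 1 list. Of 18 tested regulatory T cell genes 5 fell, 5 to 7 as libraries were left out, and 1 rose. These are 27.8 and 5.56% of them, beside 8.8 and 7.67% of all genes. Izumo1r encodes folate receptor 4, a surface protein of regulatory and follicular cells. It was at 78.9, 76.6, 36.3, 37.6 and 92.3 CPM at week 1 and at 12.9, 7.47, 4.54, 6.11 and 26.3 CPM at week 3. The groups did not overlap, and the log2 fold change was −2.49 (SE 0.477, edgeR adjusted p = 0.00329; stable). Tnfrsf4, the costimulatory receptor OX40, fell from 108.8 ± 14.2 to 51.2 ± 19.4 CPM (SD, n = 5 each; log2 fold change −1.09, SE 0.226, edgeR adjusted p = 0.00515; stable). Nt5e was the regulatory list's 1 riser: it encodes CD73, the enzyme that makes adenosine outside the cell. It was at 81.7, 50.7, 129.6, 169.6 and 49.2 CPM at week 1, and at 265, 259, 306, 270.0 and 229 CPM at week 3. The week 3 libraries lay close together and above all week 1 libraries (log2 fold change 1.47, SE 0.333, edgeR adjusted p = 0.00835; stable). The regulatory list's counts stand beside the Foxp3 levels above, whose part in them was not tested. Of 24 costimulatory genes 5 fell and 1 rose (20.8 and 4.17%, beside 8.8 and 7.67% of all genes), and 2 fell in the CD4 libraries alone. Slamf1, an adhesion receptor between lymphocytes, fell from 34.2 ± 2.75 to 15.2 ± 4.39 CPM (SD, n = 5 each; edgeR adjusted p = 0.0118; stable).

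Several genes of natural killer receptors and their adaptors rose: 5 of 18 tested genes were higher and 1 lower, at a median log2 fold change of 1.25. These are 27.8 and 5.56% of them, beside 7.67 and 8.8% of all genes tested. Members of the list summed to 53.2 to 80.1 CPM at week 1 and 113 to 142 CPM at week 3. Most of that was Hcst, given below, so the median rests largely on genes at low levels. The number that rose stayed at 4 or 5 as 1 library at a time was left out, and was 3 in the CD4 libraries alone. Klrd1 encodes CD94, the chain that pairs with NKG2 receptors, and was at 9.46, 7.67, 5.25, 4.88 and 2.58 CPM at week 1 and at 10.5, 37.2, 15.8, 10.1 and 20.1 CPM at week 3. The groups touched but did not overlap, with week 3 replicate 2 highest (log2 fold change 1.65, SE 0.339, edgeR adjusted p = 0.00479; 1.24 without that library). Klrc1, which encodes the inhibitory partner NKG2A, rose by log2 2.42 at very low levels, from 0.125 ± 0.0621 to 0.687 ± 0.173 CPM (SD, n = 5 each; SE 0.484, edgeR adjusted p = 0.00412). Hcst encodes DAP10, the adaptor that signals for NKG2D, and went from 59.3, 50.0, 55.2, 63.2 and 44.3 CPM to 95.3, 77.3, 104.4, 97.9 and 85 CPM. Its groups did not overlap and its fold was 1.69 (log2 fold change 0.76, SE 0.133, edgeR adjusted p = 0.00191). Klrd1, Klrc1 and Hcst were stable and passed in the CD4 libraries alone. Beside these, natural killer cell markers summed to at most 22.3 CPM at week 1 and 9.8 CPM at week 3, most of it Eomes. Klrb1c, a marker of that list, averaged 0.0633 CPM at week 1 and 0.456 CPM at week 3 without overlap, Ncr1 had no count at week 1 and averaged 0.0789 CPM at week 3, and Tyrobp was near 0. The sum of the gamma delta T cell markers given above, most of it Tcrg-C1, was also higher in every week 3 library than in any week 1 library. Trdc, Tcrg-C2 and Tcrg-C4 of that list overlapped between the weeks, and Sox13 was at or near 0. The part of natural killer or gamma delta T cells in these rises was not tested. Of 27 cytotoxic genes 2 rose and 1 fell (7.41 and 3.7%), no larger shares than the 7.67 and 8.8% of all genes. Fasl, the ligand of the death receptor Fas, rose by log2 1.20 (SE 0.321, edgeR adjusted p = 0.0182; stable, but adjusted p = 0.0883 in the CD4 libraries alone).

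Of 29 tested chemokine and homing receptors 4 rose and 4 fell, 13.8% each way beside 7.67 and 8.8% of all genes, with 2 to 4 and 1 to 4 as libraries were left out. Without week 1 replicate 2 these were 2 and 1, and the list is given here for its members. Ccr2 encodes the receptor for the inflammatory chemokine CCL2, on the forward strand of chromosome 9 from 124101950 to 124113557. It was at 93.9, 177, 67.9, 103.5 and 84.3 CPM at week 1 and at 237, 1035, 405, 212 and 729 CPM at week 3. All week 3 libraries were higher, and replicates 2 and 5 were the highest of them (log2 fold change 2.31, SE 0.454, edgeR adjusted p = 0.00378; 1.91 without week 3 replicate 2). Gpr18, a receptor for lipid ligands, was at 56.7, 52.8, 39.3, 37 and 38.6 CPM at week 1 and at 19.7, 13.5, 20.7, 20.2 and 19.8 CPM at week 3. It fell without overlap (log2 fold change −1.26, SE 0.138, edgeR adjusted p = 4.34e-05). Ptger3, a prostaglandin E2 receptor, rose by log2 2.88 (SE 0.569, edgeR adjusted p = 0.00391), or 2.00 without week 3 replicate 2, which held 17.9 CPM against 1.96 to 5.62 CPM in the other week 3 libraries. These 3 genes were stable. Cxcr3, the receptor for interferon-induced chemokines, was called lower (log2 fold change −1.08, edgeR adjusted p = 0.0247), but lost the call without week 1 replicate 2, week 3 replicate 1 or week 3 replicate 4, with p up to 0.0745.

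Of 36 tested integrin and adhesion genes 2 rose and 6 fell, 5.56 and 16.7% of them beside 7.67 and 8.8% of all genes. From 3 to 8 fell as libraries were left out (3 without week 1 replicate 2, 8 without week 3 replicate 2). Itga5, the alpha chain of the fibronectin receptor, was at 9.96, 9.36, 7.9, 7.3 and 8.38 CPM at week 1 and at 2.9, 5.28, 2.14, 2.55 and 3.17 CPM at week 3. The groups were separate (log2 fold change −1.42, SE 0.215, edgeR adjusted p = 0.000643; stable). Itga2, the alpha chain of a collagen receptor, rose by log2 1.59 (SE 0.296, edgeR adjusted p = 0.00278; stable), although week 3 replicate 4 at 8.57 CPM lay below week 1 replicate 4 at 8.71 CPM. Of 23 semaphorin, plexin and ephrin genes 4 fell (17.4%, beside 8.8% of all genes) and none rose. Plxnb1, a semaphorin receptor, fell by 2.11 on the log2 scale (SE 0.303, edgeR adjusted p = 0.000432), and its relative Plxnd1 by 1.39 (SE 0.321, edgeR adjusted p = 0.00901). Both were stable, and their week 1 and week 3 libraries did not overlap.

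Several genes that report recent activation fell. The activation markers Cd69 and Il2ra did not pass (log2 fold changes −0.61 and −0.26, edgeR adjusted p = 0.375 and 0.515). Of 41 tested genes of early activation and its feedback 10 fell and none rose (median log2 fold change −0.32). The share that fell was 24.4%, beside 8.8% of all genes. From 6 to 12 fell as libraries were left out, and 6 in the CD4 libraries alone. Irf8, an interferon regulatory factor, was at 20, 37.4, 39.3, 13.4 and 14.1 CPM at week 1 and at 4.69, 10.5, 2.48, 2.73 and 2.62 CPM at week 3. Week 3 replicate 2 was the highest of its group, still under every week 1 library (log2 fold change −2.43, SE 0.457, edgeR adjusted p = 0.00288). Dusp4, a phosphatase that switches off MAP kinases, was at 9.63, 13.8, 6.75, 5.32 and 7.42 CPM and then at 0.849, 3.43, 0.171, 0.0911 and 0.211 CPM. The groups were separate; the log2 fold change was −3.17 (SE 0.657, edgeR adjusted p = 0.0051) with all libraries and −4.68 without week 3 replicate 2. Spred1, another brake on the same pathway, fell by 1.68 on the log2 scale (SE 0.375, edgeR adjusted p = 0.00769), or by 2.37 without week 3 replicate 2. All 3 genes were stable and passed in the CD4 libraries alone.

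Of 45 genes of the T cell receptor complex and its first signalling steps 5 rose and 7 fell, at a median log2 fold change of −0.09. These are 11.1 and 15.6% of them, beside 7.67 and 8.8% of all genes. The number that rose was 0 to 4 in the fits that left out 1 library, and the number that fell 3 to 9. These numbers were 1 and 7 without week 1 replicate 2, 3 and 9 without week 3 replicate 2, and 0 and 6 in the CD4 libraries alone. Cd5 and Cd6, scavenger-type receptors that dampen antigen receptor signals, fell from 360.3 ± 64.6 to 205 ± 30.9 CPM and from 370.0 ± 60.5 to 209 ± 39.1 CPM (SD, n = 5 each; log2 fold changes −0.81 and −0.82, edgeR adjusted p = 0.00063 and 0.00191). Both were stable and passed in the CD4 libraries alone.

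Among genes of cell death, Casp8 and Fas, both of the death receptor route, fell. Of 37 tested genes of the BCL2 family and cell death 7 fell and 2 rose, 18.9 and 5.41% of them beside 8.8 and 7.67% of all genes. From 3 to 10 fell as libraries were left out (3 without week 1 replicate 2, 10 without week 3 replicate 2). Casp8, the initiator protease of death receptors, was at 224, 239, 227, 189.7 and 189.4 CPM at week 1 and at 128, 145, 108, 112 and 114 CPM at week 3. The groups were well apart (log2 fold change −0.82, SE 0.126, edgeR adjusted p = 0.00071). The death receptor gene Fas fell by 0.95 on the log2 scale (SE 0.174, edgeR adjusted p = 0.0025). Both were stable and passed in the CD4 libraries alone, whereas the ligand gene Fasl rose, as given above. Among 26 p53 targets and cell cycle inhibitors, 4 rose and 2 fell (15.4 and 7.69%, beside 7.67 and 8.8% of all genes), against 3 and 5 without week 3 replicate 2. As libraries were left out, 2 to 4 rose and 1 to 5 fell. Cdkn2b encodes p15, an inhibitor of the kinases that start the cell cycle. It was at 0.415, 0.282, 0.45, 0.363 and 0.292 CPM at week 1 and at 3.04, 7.04, 3.38, 3.01 and 1.18 CPM at week 3. All week 3 libraries were higher, including replicate 2, which had the highest level (log2 fold change 3.27, SE 0.433, edgeR adjusted p = 0.000204; stable).

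Calls among interferon response genes were lost without week 1 replicate 2. Of 51 tested genes 6 were called lower (11.8%, beside 8.8% of all genes) and none higher, at a median log2 fold change of −1.29. Their summed level was 9432, 21560, 8220, 3054 and 2920 CPM at week 1 and 4054, 5160, 5035, 4295 and 4484 CPM at week 3, so that 3 week 1 libraries lay above all week 3 libraries and 2 below. Isg15, a ubiquitin-like protein induced by interferon, was at 44.5, 287, 9.45, 1.21 and 4.08 CPM at week 1 and at 2.1, 14.8, 3.64, 1.46 and 5.24 CPM at week 3. Only week 1 replicates 1 and 2 stood above the week 3 libraries, and the groups overlapped. Stat2, a transcription factor of the same response, was at 259, 698, 105.1, 63.2 and 68.3 CPM and then at 68.8, 96.6, 78.6, 71.8 and 84.2 CPM, where week 1 replicates 1, 2 and 3 lay above every week 3 library and replicates 4 and 5 below. Without week 1 replicate 2 none of the 51 genes passed, the median was −0.47, and the edgeR adjusted p was 0.267 for Isg15 and 0.187 for Stat2; without week 3 replicate 2, 18 were lower, and over all fits that left out 1 CD4 library 0 to 25. Leaving out any library other than week 1 replicates 1 and 3 moved the count by more than 1.5 times. None passed in the CD4 libraries alone.

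Of 49 enzymes that build sugar chains on proteins and lipids 5 rose and 8 fell, 10.2 and 16.3% beside 7.67 and 8.8% of all genes; 4 to 7 and 6 to 9 did so as libraries were left out. Gcnt2 makes the branches of the I blood group structure and lies on the forward strand of chromosome 13 from 40859768 to 40960891. It was at 0.0415, 0.329, 0.25, 0.161 and 0.125 CPM at week 1 and at 4.69, 29.6, 4.71, 1.64 and 8.79 CPM at week 3. The groups were far apart, with week 3 replicate 2 the highest (log2 fold change 5.76, SE 0.714, edgeR adjusted p = 0.000121; 4.77 without that library). St6galnac5, a sialyltransferase of gangliosides, was at 0.747, 0.0941, 0.75, 1.13 and 0.0833 CPM and then at 15.1, 2.68, 15.9, 12.8 and 2.03 CPM. It rose without overlap, and in it week 3 replicates 2 and 5 were the lowest of their group (log2 fold change 4.09, SE 0.666, edgeR adjusted p = 0.00108). Fut8, which adds the core fucose of N-glycans, rose by log2 1.30 (SE 0.282, edgeR adjusted p = 0.00665). St3gal2, which caps chains with sialic acid, fell by 2.50 on the log2 scale (SE 0.601, edgeR adjusted p = 0.0112). These 4 genes were stable and passed in the CD4 libraries alone.

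**Figure D3:**
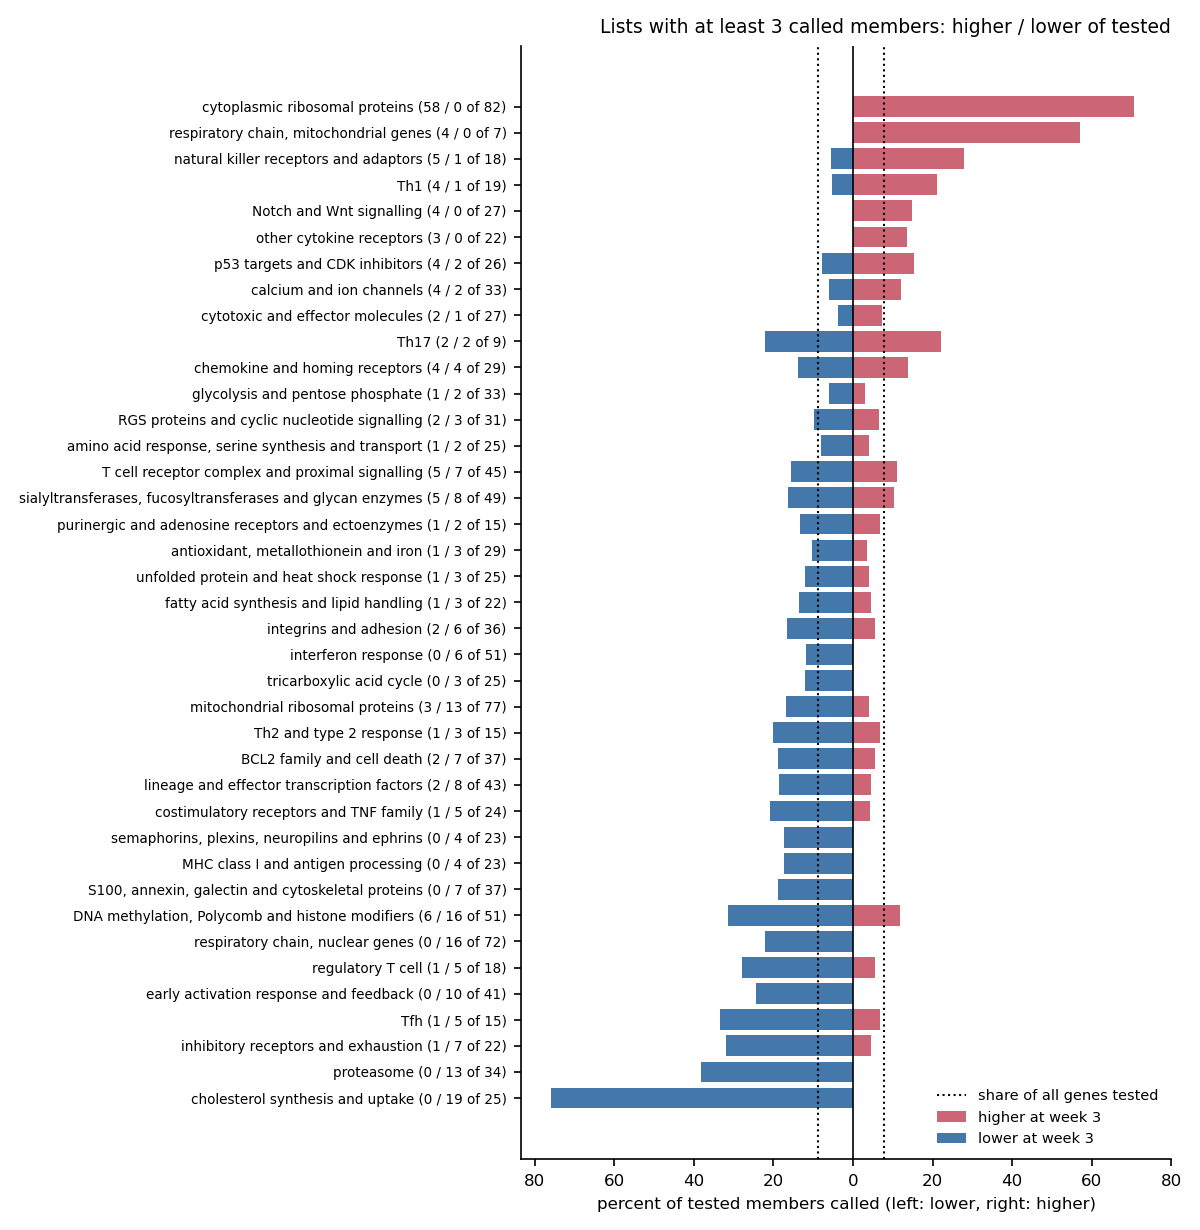
Share of tested members (percent) called higher (right) and lower (left) at week 3, for the 39 lists outside the proliferation lists with at least 3 called members; numbers in the labels are higher and lower of tested, and dotted lines are the shares of all genes tested, 7.67 and 8.8%. Cytoplasmic ribosomal proteins reach furthest to the right with 58 of 82 higher, and cholesterol genes furthest to the left with 19 of 25 lower.

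Cholesterol genes are switched on together by the factor SREBP2 when sterols are short. SREBP2 binds sterol regulatory elements next to boxes for NF-Y, a partner factor. Promoters were looked at here because 19 of 25 tested members fell together (76%, beside 8.8% of all genes) and none rose. The sterol element was searched as TCACNCCAC and the NF-Y box as CCAAT, on both strands, in the RefSeq promoter table of GRCm38.p6, from 250 bases before to 50 after each start; 18 of the 25 members were in it, with 22 promoters. The sterol element was in 1 of the 22 promoters (4.5%), against 408 of 32851 (1.2%) in the table. An NF-Y box was in 16 of the 22 (72.7%), against 12289 of 32851 (37.4%), and the motifs do not overlap in the windows printed. The 250 bases before the start are shown for 4 enzymes of the pathway, Hmgcs1 because it holds the 1 sterol element, and Mvk, Idi1 and Msmo1, chosen after their windows were seen, as examples with NF-Y boxes alone. Capitals mark the matches, given 5′ to 3′ along the gene. Hmgcs1 (chr13:119690101-119690350, forward strand) has 1 sterol element and 3 NF-Y boxes, Mvk (chr5:114444019-114444268, forward strand) has 5 boxes, Idi1 (chr13:8885356-8885605, forward strand) 2 and Msmo1 (chr8:64733579-64733828, reverse strand) 3.
Hmgcs1: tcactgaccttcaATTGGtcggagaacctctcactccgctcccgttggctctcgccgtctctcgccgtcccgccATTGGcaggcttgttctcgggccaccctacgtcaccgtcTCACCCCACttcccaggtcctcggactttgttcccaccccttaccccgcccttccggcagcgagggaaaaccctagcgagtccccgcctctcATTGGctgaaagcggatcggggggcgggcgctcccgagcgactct
Mvk: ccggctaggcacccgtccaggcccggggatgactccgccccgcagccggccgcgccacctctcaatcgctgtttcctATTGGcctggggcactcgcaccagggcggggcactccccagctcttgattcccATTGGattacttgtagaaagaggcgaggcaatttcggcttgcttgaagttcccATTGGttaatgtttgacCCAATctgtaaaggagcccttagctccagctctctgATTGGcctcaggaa
Idi1: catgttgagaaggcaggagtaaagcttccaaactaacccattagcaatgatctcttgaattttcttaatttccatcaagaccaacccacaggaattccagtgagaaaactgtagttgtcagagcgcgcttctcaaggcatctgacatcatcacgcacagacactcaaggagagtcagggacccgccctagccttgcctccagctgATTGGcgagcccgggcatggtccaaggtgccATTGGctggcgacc
Msmo1: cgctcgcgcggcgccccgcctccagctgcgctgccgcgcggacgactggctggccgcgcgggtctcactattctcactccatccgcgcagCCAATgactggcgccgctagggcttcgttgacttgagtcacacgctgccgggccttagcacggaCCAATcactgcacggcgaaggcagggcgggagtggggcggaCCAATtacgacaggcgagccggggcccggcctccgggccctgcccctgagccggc
A match describes these letters only and is no evidence of binding.

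Week 3 replicate 2 stood apart in the cholesterol pathway as well. Hmgcs1, an early enzyme of the pathway, was at 320.4, 281, 207, 161.5 and 322.5 CPM at week 1 and at 62.9, 248, 52.6, 44.8 and 82.3 CPM at week 3. Only week 3 replicate 2 lay inside the week 1 range; the other 4 were below it. The log2 fold change was −1.40 (SE 0.357, edgeR adjusted p = 0.0147), and −2.09 without that library. Msmo1, a later demethylase, fell by 0.96 on the log2 scale (SE 0.239, edgeR adjusted p = 0.0127). Sqle and Fdft1, which act at the first steps of sterol making, fell by 1.27 (SE 0.312) and 1.14 (SE 0.281; edgeR adjusted p = 0.0125 for each). These 4 genes were stable, and none passed in the CD4 libraries alone (adjusted p = 0.0636 to 0.0728). For the list, 22 members were lower without week 3 replicate 2 (median −1.18), 13 without week 1 replicate 2 (median −0.78), 7 to 22 over all such fits, and 2 in the CD4 libraries alone. The count dropped by more than 1.5 times without week 3 replicate 1, 3, 4 or 5. Week 3 replicate 2 was also the week 3 library with the highest summed S phase and mitosis genes, and the part of proliferation in the result was not tested.

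Genes of the cytoplasmic ribosome rose and genes of the proteasome fell. Of 82 tested cytoplasmic ribosomal protein genes 58 rose (70.7%, beside 7.67% of all genes) and none fell (median log2 fold change 0.35). From 47 to 64 rose as libraries were left out, and 45 in the CD4 libraries alone. Rpl22l1, a paralog of a large subunit protein, was at 59.3, 70.2, 66.7, 69.4 and 75.7 CPM at week 1 and at 135.1, 121, 143.7, 142.3 and 141.2 CPM at week 3. Its groups were far apart and it rose 2.0-fold (log2 fold change 1.00, SE 0.137, edgeR adjusted p = 0.000292). Rps28, of the small subunit, rose 1.44-fold (log2 fold change 0.53, SE 0.072, edgeR adjusted p = 0.000275). Both were stable. Cytoplasmic ribosomal protein genes took 6.99 to 7.94% of counts at week 1 and 8.09 to 10.1% at week 3. Of 77 mitochondrial ribosomal protein genes 3 rose and 13 fell, 3.9 and 16.9% of them beside 7.67 and 8.8% of all genes. From 3 to 20 of them fell as libraries were left out. Among 42 ribosome biogenesis genes 1 rose (2.38%) and none fell. Of 34 proteasome genes 13 fell (38.2%, beside 8.8% of all genes) and none rose (median −0.27). From 4 to 17 fell as libraries were left out, and 5 in the CD4 libraries alone. Leaving out week 1 replicate 3 or week 3 replicate 3, 4 or 5 lowered the count by more than 1.5 times. Psmd8, a subunit of the regulatory particle, fell by 0.53 on the log2 scale (SE 0.127, edgeR adjusted p = 0.0112; stable, adjusted p = 0.0526 in the CD4 libraries alone).

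With all libraries, called genes of the respiratory chain differed in direction by genome. Of 72 nuclear genes of the chain 16 fell (22.2%, beside 8.8% of all genes) and none rose (median −0.20). Of 7 tested genes of the mitochondrial genome 4 rose (57.1%, beside 7.67% of all genes) and none fell (median 0.55). The other 6 of the 13 mitochondrial members had no count in any CD4 library, so nothing is known of them here. Ndufa4, a nuclear-encoded subunit of cytochrome oxidase, was at 52, 63.9, 72, 60.9 and 70.4 CPM at week 1 and at 24.8, 27.7, 18.3, 23.6 and 18.5 CPM at week 3. It had the lowest adjusted p of the falls named here, and no library of one week came near the other (log2 fold change −1.50, SE 0.127, edgeR adjusted p = 2.34e-06; stable). mt-Nd5, a mitochondrial subunit of complex I, was at 2229, 1859, 1919, 2153 and 1673 CPM and then at 4862, 2296, 3208, 4020 and 2630 CPM. It was higher in every week 3 library (log2 fold change 0.79, SE 0.208, edgeR adjusted p = 0.0168), and lost the call only without week 3 replicate 1 (0.0515). Both counts moved with single libraries: 2 to 27 nuclear genes fell and 0 to 6 mitochondrial genes rose in the fits that left out 1, and 3 and 1 in the CD4 libraries alone. Counts on mitochondrial genes made up 1.44 to 1.65% of each week 1 library and 1.61 to 2.78% of each week 3 library, and the part of RNA quality was not tested.

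Of 51 tested genes of DNA methylation, Polycomb and histone modification 16 fell and 6 rose, 31.4 and 11.8% of them beside 8.8 and 7.67% of all genes. As libraries were left out 8 to 17 fell and 1 to 9 rose, and in the CD4 libraries alone 10 and 1 did. Dnmt3a, which sets new methylation marks on DNA, was at 109.7, 122, 101.1, 104.6 and 113 CPM at week 1 and at 64, 95.7, 63.7, 60.6 and 71.2 CPM at week 3. Week 3 replicate 2 was the nearest to week 1 without reaching it (log2 fold change −0.63, SE 0.105, edgeR adjusted p = 0.00123; stable). The list also holds Dnmt1, Uhrf1, Hells and Ezh2, named after their values were seen, which are tied to DNA replication and fell beside the S phase genes. The lists that define proliferation are S phase genes, mitosis genes and replication histones. Of them 44 of 47 (93.6%), 12 of 48 (25%) and 15 of 25 (60%) were lower, beside 8.8% of all genes. With 1 library left out these ran from 26 to 47, from 0 to 46 and from 4 to 18, and in the CD4 libraries alone they were 15, 0 and 1; mitosis genes lower were 46 without week 3 replicate 2 and 0 without week 1 replicate 2. Without week 1 replicate 5 or week 3 replicate 3, 4 or 5 the S phase count dropped by more than 1.5 times, and without week 1 replicate 2 or week 3 replicate 1, 3, 4 or 5 the histone count did. Their part in the other lists was not tested.

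Fat3, Syt6, Bpifb4 and Fgfr1 were among the 15 largest rises, as was Il1rl1. Fat3, an atypical cadherin, went from 0, 0.0941, 0.1, 0.242 and 0.0417 CPM to 18.3, 1.5, 10.9, 20.2 and 3.25 CPM (log2 fold change 6.73, SE 0.976, edgeR adjusted p = 0.000472). Syt6, a synaptotagmin of vesicle fusion, went from 2.61, 0.141, 7, 6.94 and 0.542 CPM to 144, 7.39, 138, 132 and 19.1 CPM (log2 fold change 4.68, SE 1.1, edgeR adjusted p = 0.00985). In Fat3, Syt6 and St6galnac5, week 3 replicates 2 and 5 held the lowest levels of their group, and in Ccr2, Klrd1, Gcnt2, Ptger3 and Tmem176a the same pair held the highest. Bpifb4, of a lipid-binding protein family, shared the first pattern, from at most 5.2 CPM at week 1, in replicate 4, to 35.4, 7.52, 97.7, 101.3 and 31.4 CPM (log2 fold change 5.29, SE 1.3, edgeR adjusted p = 0.0125; 7.05 without week 1 replicate 4). Fgfr1, a receptor for fibroblast growth factors, was at 2.32, 2.31, 1.15, 1.33 and 2.67 CPM at week 1 and at 7.46, 8.4, 12.7, 11.4 and 62.2 CPM at week 3, where replicate 5 stood far above the rest. Its log2 fold change was 3.38 (SE 0.599, edgeR adjusted p = 0.00202), and 2.35 without that library. These genes were stable in their calls.

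The next 6 genes were named for large changes, by a rule that required no overlap between the week 1 and week 3 libraries. Dusp3, a phosphatase of MAP kinases, was at 2.61, 2.59, 2.9, 4.07 and 3.21 CPM at week 1 and at 13.2, 42.5, 27.2, 16.5 and 30.8 CPM at week 3. It rose in each week 3 library (log2 fold change 3.08, SE 0.259, edgeR adjusted p = 2.34e-06), in contrast to its relative Dusp4. Hpgds, which makes prostaglandin D2, rose from 3.25 ± 1.24 to 23.3 ± 8.07 CPM (SD, n = 5 each; log2 fold change 2.84, SE 0.426, edgeR adjusted p = 0.000625). Adgrg3, an adhesion-type G protein-coupled receptor, rose by log2 2.88 (SE 0.356, edgeR adjusted p = 0.00012). Its week 3 replicate 2 held 44.5 CPM, against 17.9 to 23.2 CPM in the rest of week 3. On the falling side, Klc3, a kinesin light chain, went from 10.01 ± 2.72 to 1.75 ± 0.661 CPM (SD, n = 5 each; log2 fold change −2.51, SE 0.294, edgeR adjusted p = 7.98e-05). Sfmbt2, a Polycomb protein, fell by 1.64 on the log2 scale (SE 0.215, edgeR adjusted p = 0.000191), and Ncf1, a subunit of the phagocyte oxidase, by 1.64 as well (SE 0.308, edgeR adjusted p = 0.00288). All 6 were stable and passed in the CD4 libraries alone.

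**Figure D4:**
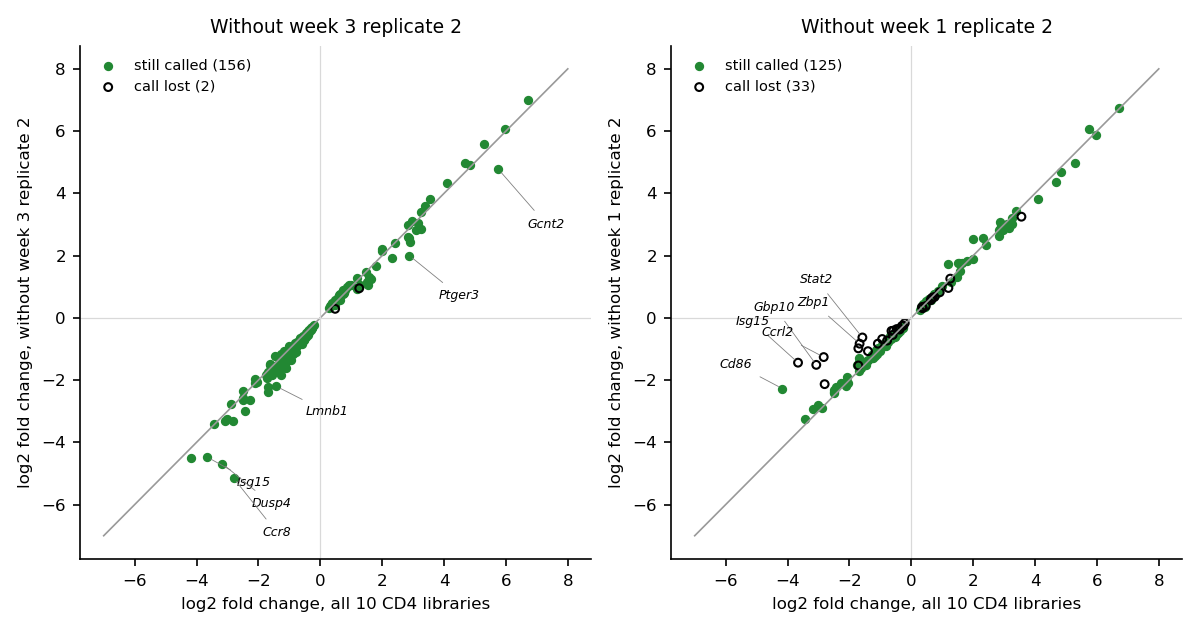
Log2 fold change (week 3 against week 1) of the 158 named genes that passed, with all 10 CD4 libraries (x axis) and without week 3 replicate 2 (left) or week 1 replicate 2 (right); filled points kept the call and open points lost it. No gene changed sign; 156 kept the call without week 3 replicate 2 and 125 without week 1 replicate 2.

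Of the 158 genes that the naming rule takes and that passed, 107 passed in all 10 fits that left out 1 CD4 library, and 51 lost the call in at least 1. Without week 3 replicate 2 the call was lost by 2, and without week 1 replicate 2 by 33. The plot with and without each of these libraries shows the sizes.

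The week 3 change of CD4 cells was then set against the week 4 change of CD8 cells, which differ in time in IL-7 and IL-15 (18 and 25 days) as well as in lineage; these cannot be told apart. By a test of the difference itself, 87 genes passed (0.655% of those tested), 54 with a more positive and 33 with a more negative change in CD4 cells. Without CD8 week 1 replicate 3 these were 161 and 156, and over the other fits that left out 1 library they ran down to 18 and 10. Il1rl1 changed in opposite directions, by 5.97 in CD4 cells and −4.46 in CD8 cells (difference 10.44, SE 1.11, edgeR adjusted p = 9.36e-05). Asph, an aspartate hydroxylase of the endoplasmic reticulum, rose by 2.82 in CD4 cells and had a value of −0.07 in CD8 cells (difference 2.89, SE 0.419, edgeR adjusted p = 0.00316). Gpr18 fell by 1.26 in CD4 cells beside 0.01 in CD8 cells (difference −1.27, SE 0.193, edgeR adjusted p = 0.00415). Il7r had 0.90 in CD4 cells, which did not pass, and −2.59 in CD8 cells, and the difference of 3.49 passed (SE 0.618, edgeR adjusted p = 0.0135). These 4 differences passed in all 20 fits that left out 1 library. For 149 of the 158 named genes that passed in CD4 cells the difference did not pass, which does not show that they changed alike.

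**Figure D5:**
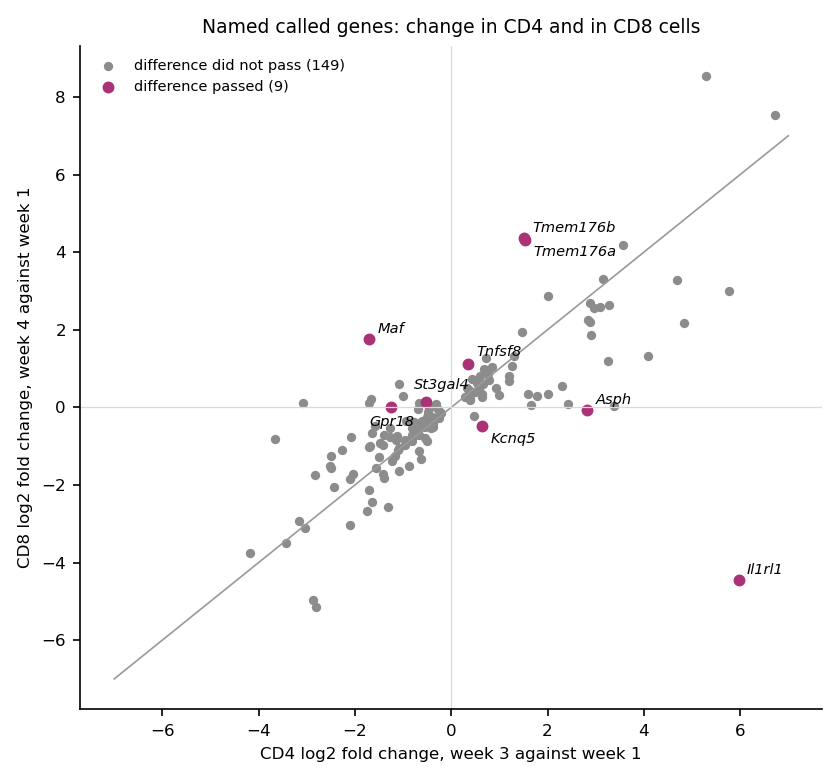
Log2 fold change of the 158 named called genes in CD4 cells (week 3 against week 1, x axis) and in CD8 cells (week 4 against week 1, y axis); the line marks equal change, and the 9 coloured, named points passed the test of the difference. Il1rl1 lies at 5.97 on the x axis and −4.46 on the y axis, on opposite sides of 0.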

How the data were processed

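The deposited table holds unnormalized read counts of genes in 20 libraries; per the submitters' processing notes and the file headers, the authors aligned with STAR to mm10 and counted exon reads with featureCounts 1.6.3 (reverse strand, GENCODE M12 on GRCm38). Reads shared by near-identical or overlapping genes went uncounted under these settings, so such genes are uncertain. The labels pair no libraries, and replicates were numbered in accession order within a group.

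Counts were tested with edgeR 4.0.16 (R 4.3.3): filterByExpr, TMM factors and 1 quasi-likelihood fit over all 20 libraries with a mean per group (4 groups), and F tests whose p-values were adjusted after Benjamini-Hochberg over 13290 of 49671 genes, at a threshold of 0.05. The SE was taken from the log2 fold change and the root of its F value, and CPM use TMM-scaled library totals. At these depths 3 counts over a group equal 0.0265 (week 1) and 0.026 CPM (week 3). Alternatives were DESeq2 1.42.0, RLE factors, library totals, no filter, at least 5 CPM in 5 libraries, the CD4 libraries alone with and without title neighbours as a block, and each library left out. Replicates differed by more than sampling noise (chi-square of 21.6 to 154 per degree of freedom). The scripts were tested on simulated data. Python 3.11.15, numpy 2.4.6, pandas 2.3.3 and matplotlib 3.10.9 made tables and figures.

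The rule for named genes takes 20 identity genes, the 15 largest rises and 15 largest falls (adjusted p under 0.05, at least 10 CPM in the higher group, no overlap, without predicted genes, receptor segments and proliferation genes), and up to 4 called genes of each list with at least 3 called; 176 genes result, of which the text gives those its results turn on; some genes of the rule are not reported here. Members, lists and rules were chosen with earlier results of these data known.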

Additional observations from a re-analysis of the deposited data

Results flagged for a closer look

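Of 312 groups of 5 libraries looked at for the named genes reported, 36 had 1 library far from the rest of its group by Dixon's criterion (0.71 for 5 values); chance alone flags about 1 in 20. Most of them concern week 3 replicate 2, which was the highest of its group for Adgrg3 at 44.54 CPM, Irf8 at 10.51, Spred1 at 8.266, Ptpn6 at 233.2, Ccr8 at 2.726, Ptger3 at 17.85, Dusp4 at 3.429, Isg15 at 14.82, Rgs10 at 64.59, Gcnt2 at 29.55 and St3gal4 at 58.3 CPM. It was also highest for Lmnb1 at 278.4 CPM, Atp5g3 at 205.5, Sqle at 141.9, Fdft1 at 50.78, Msmo1 at 75.71, Sesn2 at 21.72, Psmd8 at 165 and Prdx4 at 38.96 CPM, and lowest for Gpr18 at 13.54, Orai2 at 116, Pfkfb2 at 6.551 and Mrpl24 at 106.8 CPM.

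Week 1 replicate 2 was the highest of its group for Fasl at 18.16 CPM, Maf at 20.13, Tmem176a at 19.61, Cd86 at 10.39, Ccrl2 at 36.03, Gbp10 at 93.93 and Isg15 at 286.7 CPM. Elsewhere, week 1 replicate 4 was highest for Bpifb4 at 5.202 CPM, week 1 replicate 1 for Cd200 at 16.39, week 3 replicate 5 for Fgfr1 at 62.17 and Dtx4 at 26.8, and week 3 replicate 1 for Plxnb1 at 1.117 and Rgs1 at 17.73 CPM.

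The change in CD4 cells differed from that in CD8 cells, by the test of the difference (edgeR), for 9 named genes that passed in CD4 cells. Values of the difference on the log2 scale, CD4 minus CD8, were 10.44 for Il1rl1 (adjusted p = 9.36e-05), 2.89 for Asph (adjusted p = 0.00316) and −1.27 for Gpr18 (adjusted p = 0.00415), which passed in all 20 fits with 1 library left out. The other 6 passed in fewer: Maf with −3.47 (adjusted p = 0.0458) in 3, Tmem176a with −2.78 (adjusted p = 0.0341) in 8, Tmem176b with −2.84 (adjusted p = 0.0347) in 7, the cytokine gene Tnfsf8 with −0.76 (adjusted p = 0.0358) in 9, the potassium channel gene Kcnq5 with 1.12 (adjusted p = 0.0406) in 4 and St3gal4 with −0.66 (adjusted p = 0.047) in 2. For Maf and Kcnq5, the changes in CD4 and CD8 cells had opposite signs, −1.71 and 1.76 for Maf and 0.64 and −0.48 for Kcnq5.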

How the results depend on the processing

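In the CD4 comparison, 1020 genes were higher and 1169 lower. As shares of the 13290 genes these are 7.67 and 8.8%. With the CD4 libraries alone the shares were 4.51 and 4.15%. With 1 CD4 library left out they ran from 4.32 to 12.7% and from 3.88 to 14.8%, or from 574 to 1683 and from 516 to 1967 genes. They rose without week 3 replicate 2 (1683 and 1967), and fell by more than 1.5 times in 1 or both directions without week 1 replicate 3 (602 and 634), week 3 replicate 1 (764 and 755), replicate 3 (596 and 516), replicate 4 (574 and 516) or replicate 5 (668 and 634). Without both libraries that stood apart they were 1506 and 1702. DESeq2 gave 1309 and 1528, RLE factors 1025 and 1172, library totals 855 and 1321, no filter 738 and 891, and the 5 CPM filter 892 and 979. Of the 2189 genes called, 2137 were called the same way without week 3 replicate 2, 1483 without week 1 replicate 2 and 1037 in the CD4 libraries alone. No named gene that passed with all libraries reversed in any setting. Among named genes that did not pass some changed sign, such as Ccr7, at −0.13 with all libraries and 0.04 without week 3 replicate 2.

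For the difference from CD8 cells, the 54 more positive and 33 more negative genes became 180 and 157 with DESeq2 and 35 and 20 with no filter, and ran from 18 to 161 and from 10 to 156 with 1 library left out; the highest values came without CD8 week 1 replicate 3. The cause was not tested.

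Neighbouring title numbers were tried as a replicate block in the CD4 libraries alone and gave 841 higher and 963 lower. Deviations of neighbours correlated at −0.151 to 0.46, so the numbers are not shown to pair libraries. Genes below about 1 CPM rest on few counts, and their folds are imprecise.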

Other observations

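The genes here lie outside the naming rule and were chosen after their values were seen. Padi2, a peptidylarginine deiminase that converts arginine to citrulline in proteins, was at 43.9, 74.7, 65.6, 74.3 and 41.5 CPM in week 1 replicates 1 to 5 and at 298, 243, 293.5, 227 and 168 CPM in week 3 replicates 1 to 5. Every week 3 library was above every week 1 library (log2 fold change 2.04, SE 0.187, edgeR adjusted p = 6.11e-06), and the call held in all 10 fits that left out 1 CD4 library. In CD8 cells the change was 0.72, and the difference of 1.32 passed (SE 0.255, edgeR adjusted p = 0.0264).

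Kit, the receptor for stem cell factor, was at 0.0415, 0.282, 2.0, 3.15 and 0.167 CPM at week 1 and at 23.1, 40.7, 25.3, 15 and 2.16 CPM at week 3. Week 3 replicate 5 lay inside the week 1 range and the other 4 above it (log2 fold change 4.23, SE 0.896, edgeR adjusted p = 0.0057; 5.14 without week 1 replicate 4). Kit is also a mast cell gene. Of the 7 other mast cell and basophil markers, Cpa3 averaged 0.0623 CPM at week 1 and 0.492 CPM at week 3, Hdc 0.517 and 0.442 CPM, and Mcpt4, Mcpt8, Fcer1a, Ms4a2 and Gata2 were at 0; the part of such cells in the result was not tested.

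Tcrg-C1, a constant segment of the gamma T cell receptor chain, was at 15.1, 5.03, 26.4, 28.1 and 7.25 CPM at week 1 and at 69.5, 57.1, 59, 69 and 38 CPM at week 3, without overlap (log2 fold change 1.84, SE 0.439, edgeR adjusted p = 0.0108). Whether gamma delta T cells were more frequent or CD4 cells held more of this transcript cannot be told apart in bulk RNA. Jak1, a kinase that carries the signals of IL-7 and IL-15, rose from 674 ± 66.6 to 902 ± 81.3 CPM (SD, n = 5 each, log2 fold change 0.42, SE 0.077, edgeR adjusted p = 0.00258). It was the 1 gene that passed among 23 tested genes of common gamma chain cytokine receptors, JAK, STAT and SOCS proteins. That is 4.35% of them, a smaller share than the 16.5% of all genes that passed.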
